A study of Mus musculus with 9 samples.

Results

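Laminins, nidogens and integrins are the genes of the contact between a cell and its basement membrane. The members were taken by gene symbol: every table entry for a laminin alpha, beta or gamma chain, a nidogen, or an integrin alpha or beta chain. The rule found 39 of 37203 entries, namely 11 laminin chains, 2 nidogens, 18 integrin alpha chains and 8 integrin beta chains. Of these, 33 held enough counts to be tested (9 laminin chains, both nidogens, 16 alpha and 6 beta chains). The other 6 stayed at 36 counts or fewer in every library.

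The libraries were made from total RNA of liver of Wistar rats, with 3 libraries in each of 3 groups. Normal rats received olive oil, the vehicle. Fibrosis rats received the liver toxin carbon tetrachloride (CCl4) for 8 weeks, in 3 doses a week of 2 mL/kg of a 50% solution in that oil. Schisandrin B rats received the same CCl4 course and, after the first 4 weeks, schisandrin B (a lignan of Schisandra fruit) every day for 4 weeks. The study gave schisandrin B at 25 or 50 mg/kg, and the labels do not say which dose the 3 libraries represent. The rats are described as males and no age is given. Nothing in the labels ties each library to a separate rat, so the p-values below measure the spread between libraries, which may be technical.

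Laminins are cross-shaped trimers of 1 alpha, 1 beta and 1 gamma chain, and with the collagen IV network they form the sheet of a basement membrane. Nidogens link both networks. Integrins are pairs of 1 alpha and 1 beta chain that span the cell membrane, bind matrix or other cells outside, and attach to actin through talin and kindlin inside. The healthy liver sinusoid lacks a continuous basement membrane, which is found around bile ducts and larger vessels, and the deposit of laminin along the sinusoid is a known feature of fibrosis.

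Library totals ran from 10320299 to 16255167 counts, and levels are given as CPM, each gene's counts relative to the TMM-scaled library total, on which 3 counts correspond to 0.176 to 0.287 CPM. The gene of albumin, the main plasma protein made by hepatocytes, was the most counted in all 9 libraries. Kdm5d and Eif2s3y, both Y-linked, had 0 counts in the 3 libraries labelled normal and 5.91 to 13.3 CPM in the other 6. A difference from the normal libraries thus cannot be told apart from a difference of sex. Ddx3y, also Y-linked, went another way: it had 0.813 to 2.59 CPM in normal libraries. It had no call against normal in fibrosis or with schisandrin B (-0.24 and -0.79 on the log2 scale). Acta2, an actin of activated stellate cells, and Col1a1, a chain of collagen I, are 2 genes that mark fibrosis. Against normal libraries Acta2 rose in fibrosis by 1.54 ± 0.32 (SE) on the log2 scale (edgeR adjusted p 0.00196). Col1a1 had no call there (0.38 ± 0.44, edgeR adjusted p 0.506). With schisandrin B against fibrosis Col1a1 rose by 1.55. This call was lost with library totals (1.25, edgeR adjusted p 0.0574) and without fibrosis replicate 1 (1.38, 0.0835). Of 14 stellate cell and fibroblast markers, both genes among them, 5 rose and 5 fell in that comparison (71.4% called, against 47.3% of all tested genes). Fibrosis replicate 1 stood apart from its group: the chi-square of gene counts, divided by its degrees of freedom, came to 98.0 and 116 against the other 2 fibrosis libraries and to at most 43.7 for any other pair within a group. It was also the highest of the 3 fibrosis libraries in 23 of 33 members (69.7%) and in 40.8% of all tested genes. In whole-liver RNA, fewer cells of a type and less RNA per cell cannot be told apart.

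A gene is called when its Benjamini-Hochberg adjusted p over all 14581 tested genes is under 0.05 in edgeR's quasi-likelihood test, and only such genes are said to have risen or fallen. In fibrosis against normal libraries 10 members rose and 3 fell. These 13 of 33 (39.4%) compare with 48.3% of all tested genes, of which 25.4% were higher and 22.9% lower. Without fibrosis replicate 1 the split was 8 higher and 7 lower, and with library totals in place of TMM scaling 13 higher and 1 lower. The median log2 change was 0.05 for the members and 0.03 for all tested genes. With schisandrin B against fibrosis 4 members rose and 11 fell, and 15 of 33 (45.5%) compare with 47.3% of all tested genes, of which 22.5% were higher and 24.8% lower. This split was 5 and 8 without fibrosis replicate 1, and 2 and 13 with library totals. Here the median was -0.36 for the members and -0.03 for all genes. Against normal libraries 3 members rose and 1 fell with schisandrin B, and 4 of 33 (12.1%) compare with 10.5%. Libraries of the groups compared did not overlap in 15, 16 and 9 members in the same order, against 55.8%, 56.8% and 38.7% of all tested genes. The members were thus called no more often than 48.3% and 47.3% of genes at large in the comparisons with fibrosis. The first comparison and the second share the fibrosis libraries.

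**Figure D1:**
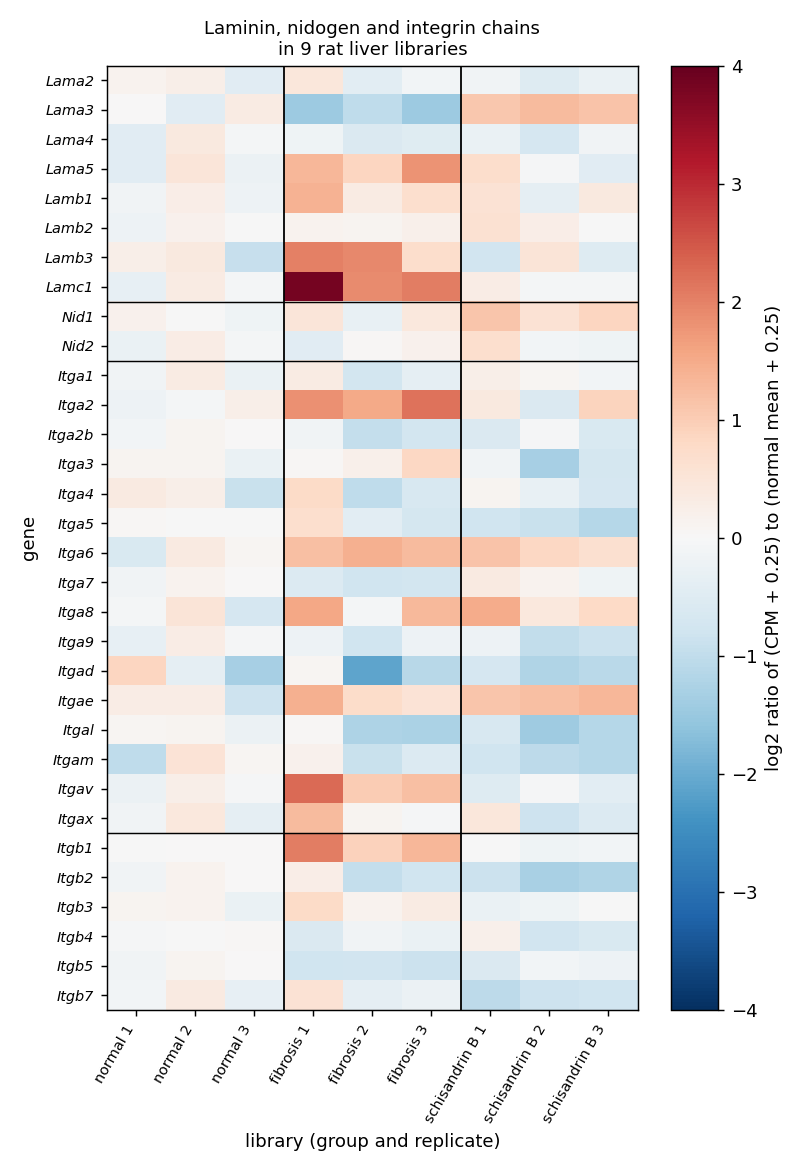
Level of the tested members reported here (rows) in the 9 libraries (columns), as the log2 ratio of CPM + 0.25 to the normal mean + 0.25. The darkest red cell is Lamc1 in fibrosis replicate 1, and Lama3 is the laminin chain that is blue in fibrosis and red in schisandrin B libraries.

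Of the 9 tested laminin chains 5 rose and 1 fell in fibrosis against normal libraries, and 1 rose and 4 fell with schisandrin B against fibrosis. Of all tested genes 25.4% and 22.9%, then 22.5% and 24.8%, were called in these directions. Lamc1 had larger changes than Lamb1, Lamb3 and Lama5, and Lama3 moved the opposite way. Lama2, Lama4 and Lamb2 were called in none of the 3 comparisons.

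Lamc1 encodes gamma 1, the gamma chain of most laminins. It stood at 30.8, 48.0 and 36.5 CPM in normal libraries, at 549, 144 and 158 CPM in fibrosis libraries, and at 47.4, 36.2 and 36.6 CPM in schisandrin B libraries. All 3 fibrosis libraries lay above all others, and the remaining 2 groups overlapped. The rise was 7.38-fold, or 2.88 ± 0.49 (SE) on the log2 scale (edgeR adjusted p 0.000911), and the fall with schisandrin B was 2.82 ± 0.49 (edgeR adjusted p 0.00108). Fibrosis replicate 1 sets much of this size: without it Lamc1 rose by 1.98 and fell by 1.92 on the log2 scale, both called. Between schisandrin B and normal libraries Lamc1 differed by 0.06 on the log2 scale with a 95% confidence interval of -0.97 to 1.09.

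Lamb3, a beta chain of the anchoring laminin of epithelia, had 0.486 to 1.56 CPM in normal, 2.00 to 5.34 CPM in fibrosis and 0.573 to 1.75 CPM in schisandrin B libraries. In counts these were 6 to 23, 34 to 66 and 6 to 24, so its level is less precise than that of Lamc1. Lamb3 rose by 1.83 ± 0.55 and fell by 1.96 ± 0.56 on the log2 scale, each called (edgeR adjusted p 0.0165 and 0.0127). The rise was not called without normal replicate 3 (edgeR adjusted p 0.0622), and the fall was not called without schisandrin B replicate 1 (0.0592) or 3 (0.0545).

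Lama3, an alpha chain that assembles with beta 3 in epithelia, went against Lamb3. It had 5.93, 4.20 and 7.29 CPM in normal, 1.94, 2.72 and 1.94 CPM in fibrosis, and 12.5, 14.3 and 13.1 CPM in schisandrin B libraries. The 3 groups did not overlap, with fibrosis lowest and schisandrin B highest. Lama3 fell by 1.39 ± 0.28 in fibrosis (edgeR adjusted p 0.00157) and rose by 2.59 ± 0.28 with schisandrin B, the lowest adjusted p of any member in any comparison (edgeR, 3.32e-05). It also rose by 1.20 ± 0.26 with schisandrin B against normal (edgeR adjusted p 0.0141), a call that was lost without normal replicate 2 or without schisandrin B replicate 2 or 3. The summed level of 10 hepatocyte markers ran from 242833 to 278834 CPM in normal, 67139 to 114352 CPM in fibrosis and 205566 to 228957 CPM in schisandrin B libraries. This sum thus also was lowest in fibrosis, but with schisandrin B it lay below normal and Lama3 above it. Of the 10 single markers 8 fell and 0 rose in fibrosis (80% called, against 48.3% of all tested genes). With schisandrin B against fibrosis 7 rose and 0 fell (70% called, against 47.3%). Library totals gave 1 higher and 7 lower, then 6 and 1. With schisandrin B against normal 0 of 10 were called (10.5% of all tested genes), and their log2 changes there ran from -0.60 to 0.59. The part of hepatocyte RNA in the level of Lama3 was not tested.

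Lama5, an alpha chain of epithelial and vascular basement membranes, changed in the same direction as Lamc1. Its level was 2.41, 4.81 and 2.83 CPM in normal, 8.82, 6.28 and 12.2 CPM in fibrosis, and 5.64, 3.21 and 2.37 CPM in schisandrin B libraries. Each fibrosis library exceeded every other library. Lama5 rose by 1.43 ± 0.39 and fell by 1.29 ± 0.39 on the log2 scale (edgeR adjusted p 0.010 and 0.0176). The fall was lost without fibrosis replicate 3 or schisandrin B replicate 2 or 3, where edgeR adjusted p reached 0.0775. The count ratio of Lama3 to Lama5 was 0.873 to 2.57 in normal, 0.159 to 0.434 in fibrosis and 2.22 to 5.50 in schisandrin B libraries. Fibrosis libraries had the lowest ratios without overlap, and those of the other groups overlapped.

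Lamb1, the common beta partner of gamma 1, changed far less than Lamc1. It had 8.85, 11.8 and 8.42 CPM in normal, 25.8, 12.3 and 15.5 CPM in fibrosis, and 14.7, 7.51 and 12.8 CPM in schisandrin B libraries. The fibrosis range lay just above the normal range and overlapped with that of schisandrin B. Lamb1 rose by 0.88 ± 0.31 in fibrosis (edgeR adjusted p 0.0369), a call lost in 7 of 18 alternatives, among them the fit without fibrosis replicate 1 (0.52, adjusted p 0.134). With schisandrin B it was 0.62 ± 0.31 lower without a call (edgeR adjusted p 0.126). Reads of Lamc1 were 3.49 to 4.34 times those of Lamb1 in normal libraries, 10.2 to 21.3 times in fibrosis and 2.86 to 4.83 times in schisandrin B libraries, so the ratio of gamma 1 to beta 1 was higher in each fibrosis library than in any other.

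The laminin chains without a call had narrow ranges. Lamb2, the beta chain of vascular and synaptic basement membranes, ran from 9.96 to 17.5 CPM over all 9 libraries, with log2 changes of 0.15 ± 0.21 in both fibrosis against normal and schisandrin B against fibrosis. Lama2, which anchors muscle fibres, ran from 5.25 to 10.7 CPM. Lama4, an endothelial alpha chain, ran from 7.0 to 14.9 CPM, and its largest change was -0.42 ± 0.26 in fibrosis against normal (edgeR adjusted p 0.207). Lama1, an alpha chain of embryonic basement membranes, had 3 counts in all libraries together: 0 in normal, 2 in fibrosis and 1 in schisandrin B. Lamc3 had 1 to 36 counts and was highest in 1 normal library.

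**Figure D2:**
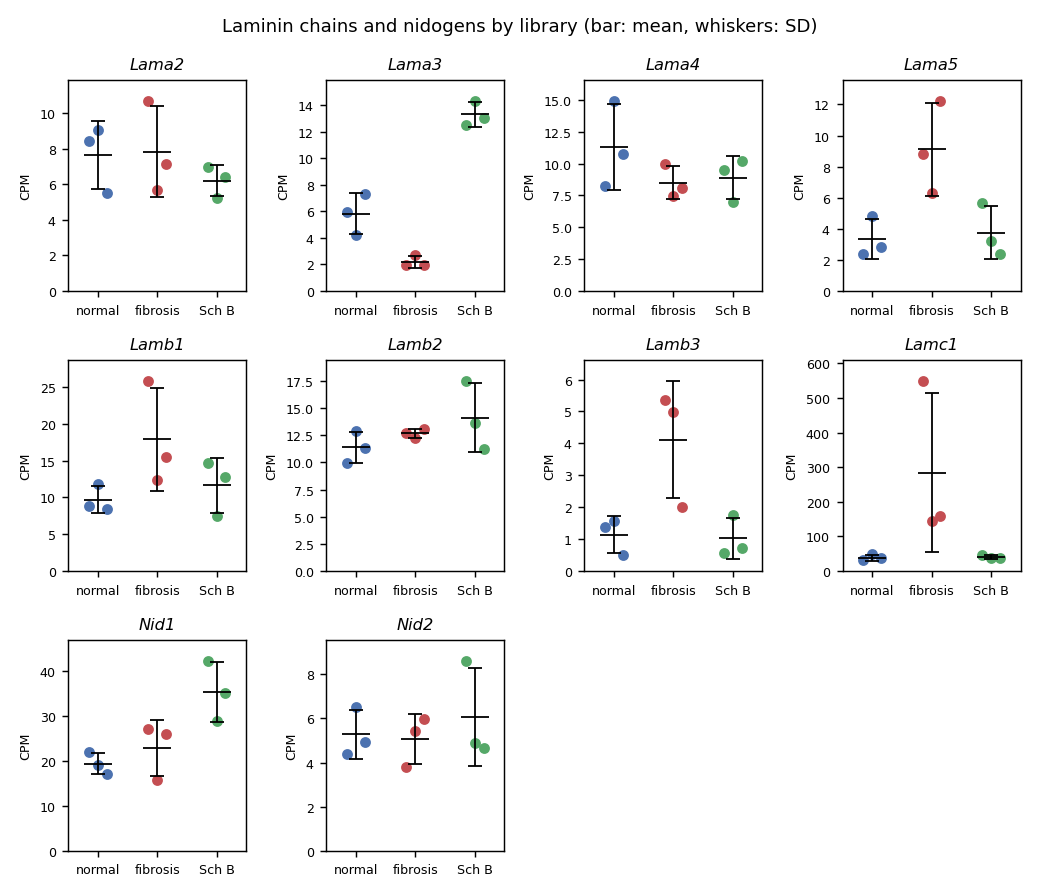
Levels of the laminin chains reported here and both nidogens in CPM, with 1 point per library, the mean as a bar and the SD as whiskers (n = 3 per group), each panel from 0 on its own scale. Lamc1 in fibrosis is spread from 144 to 549 CPM, while Lama3 forms 3 separate groups.

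The summed level of the 11 laminin chains was 77.8, 110 and 87.1 CPM in normal, 654, 207 and 229 CPM in fibrosis, and 120, 91.5 and 98.1 CPM in schisandrin B libraries. Lamc1 alone took 39.6% to 43.5% of all laminin counts in normal, 69.1% to 84.0% in fibrosis and 37.3% to 39.6% in schisandrin B libraries. These shares also depend on the length of each transcript, so they are compared between libraries only. Fibrosis libraries were above all others in both measures.

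Nidogens did not follow the laminins. Nid1, which binds the gamma 1 chain, had 21.9, 19.2 and 17.2 CPM in normal, 27.1, 15.7 and 25.9 CPM in fibrosis, and 42.2, 28.9 and 35.1 CPM in schisandrin B libraries. The schisandrin B libraries lay above all others, and fibrosis and normal libraries overlapped. Nid1 was 0.24 ± 0.23 higher in fibrosis without a call (edgeR adjusted p 0.414), except with library totals (0.67, adjusted p 0.0434). It rose by 0.63 ± 0.23 with schisandrin B against fibrosis (edgeR adjusted p 0.0414) and by 0.87 ± 0.23 against normal (0.0351). Of 18 alternatives 9 and 5 did not call these 2 rises, and none of the 18 turned their direction. The 14 stellate cell and fibroblast markers summed to 308 to 464 CPM in normal, 357 to 596 CPM in fibrosis and 538 to 739 CPM in schisandrin B libraries, and none was at 0 in a whole group. With schisandrin B against fibrosis 5 of these markers rose and 5 fell, or 71.4% called, against 47.3% of all tested genes. The numbers were 2 and 3 without fibrosis replicate 1, and 2 and 5 with library totals. The part of these markers in the level of Nid1 was not tested. Nid2 ran from 3.80 to 8.60 CPM in all 9 libraries without a call. The count ratio of Lamc1 to Nid1 was 1.41 to 2.50 in normal, 6.11 to 20.2 in fibrosis and 1.04 to 1.26 in schisandrin B libraries, with no overlap between any 2 groups.

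Of the 22 tested integrin chains 5 rose and 2 fell in fibrosis against normal libraries, and 2 rose and 7 fell with schisandrin B against fibrosis. The called shares of 31.8% and 40.9% were under the 48.3% and 47.3% of all tested genes. After Itga2, which had few counts, Itgav and Itgb1 had the largest changes. Without fibrosis replicate 1 the numbers were 4 higher and 6 lower in the first comparison and 3 higher and 4 lower in the second. Scaling by library totals gave 7 higher and 0 lower, and 1 higher and 8 lower.

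Itgb1 encodes beta 1, the partner of most alpha chains that bind laminin, collagen and fibronectin. Its level was 85.2, 87.1 and 86.7 CPM in normal libraries, 355, 163 and 217 CPM in fibrosis libraries and 85.1, 76.0 and 79.9 CPM in schisandrin B libraries. The normal libraries were nearly equal, and every fibrosis library was well above them. Itgb1 rose 2.83-fold, by 1.50 ± 0.25 on the log2 scale (edgeR adjusted p 0.000503), and fell by 1.61 ± 0.25 with schisandrin B (edgeR adjusted p 0.000366). Without fibrosis replicate 1 the changes were 1.14 and -1.25, both called. Schisandrin B and normal libraries differed by -0.10, with a 95% confidence interval of -0.64 to 0.43.

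Itgb5, a partner of alpha V that binds vitronectin, moved the other way. It had 109, 128 and 122 CPM in normal, 68.7, 70.4 and 66.1 CPM in fibrosis, and 79.2, 112 and 103 CPM in schisandrin B libraries. Fibrosis libraries were lowest without overlap, and schisandrin B libraries overlapped with normal ones. Itgb5 fell by 0.80 ± 0.17 (edgeR adjusted p 0.00241) and rose by 0.52 ± 0.17 with schisandrin B (edgeR adjusted p 0.0258). Library totals ended both calls, at -0.38 (adjusted p 0.0793) and 0.24 (adjusted p 0.252), and the rise was also lost without a filter on low counts and without fibrosis replicate 3 or schisandrin B replicate 2 or 3.

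A ratio within a library does not depend on that scaling. The shares and the ratio below are not separate measures, because higher Itgb1 counts alone lower the share of Itgb5. Itgb1 took 27.9% to 30.7% of all integrin beta counts in normal, 55.8% to 66.1% in fibrosis and 32.6% to 38.6% in schisandrin B libraries. Itgb5 took 39.2% to 41.5%, 12.8% to 24.1% and 35.9% to 47.8% in the same order. For each of these shares the fibrosis libraries were apart from all others. The count ratio of Itgb1 to Itgb5 was 0.683 to 0.784 in normal, 2.31 to 5.16 in fibrosis and 0.681 to 1.07 in schisandrin B libraries. Reads of beta 1 thus outnumbered those of beta 5 in every fibrosis library and in 1 of the other 6.

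**Figure D3:**
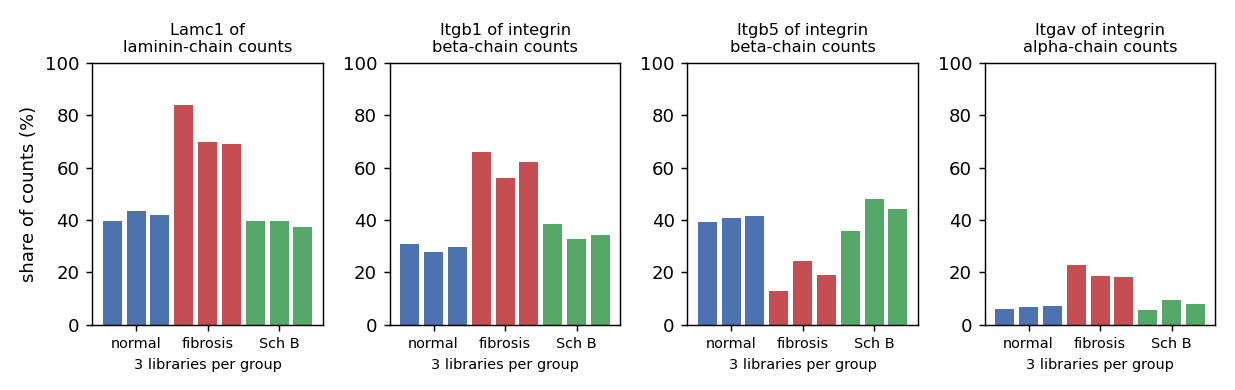
Share of Lamc1 in all laminin-chain counts, of Itgb1 and of Itgb5 in all integrin beta-chain counts, and of Itgav in all integrin alpha-chain counts, in percent, with 1 bar per library and 3 libraries per group. In each panel the 3 fibrosis bars are all higher, or for Itgb5 all lower, than the other 6.

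Itgav, the alpha V chain, pairs with several beta chains, binds RGD motifs and is known for releasing latent TGF-beta. It had 19.7, 27.4 and 22.7 CPM in normal, 113, 47.6 and 53.4 CPM in fibrosis, and 16.2, 22.7 and 17.3 CPM in schisandrin B libraries. All fibrosis libraries were above the others, with replicate 1 at about the summed level of its 2 group mates. Itgav rose by 1.61 ± 0.31 (edgeR adjusted p 0.00138) and fell by 1.92 ± 0.31 (edgeR adjusted p 0.000534), and without fibrosis replicate 1 by 1.12 and 1.43, both called. It took 6.02% to 6.95% of integrin alpha counts in normal, 18.3% to 22.9% in fibrosis and 5.43% to 9.39% in schisandrin B libraries.

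The other RGD-binding chains did not share this pattern. Itga5, the fibronectin receptor, had 56.9 to 59.5 CPM in normal libraries, 91.8, 43.2 and 35.5 CPM in fibrosis libraries, and 26.4 to 33.1 CPM in schisandrin B libraries. One fibrosis library was above the normal range and 2 were below it, so the group mean hides a split. It was not called in fibrosis (-0.03 ± 0.29, edgeR adjusted p 0.945), but without fibrosis replicate 1 it was called lower at -0.56 (adjusted p 0.0133). Itga5 fell by 0.92 ± 0.30 with schisandrin B against fibrosis (edgeR adjusted p 0.0256), a call that ended without fibrosis replicate 1 (-0.39, adjusted p 0.0607) and without each schisandrin B library. Itga8, the nephronectin receptor of mesenchymal cells, had 1.21 to 3.12 CPM in normal and 1.97 to 6.64 CPM in fibrosis libraries, 1.16 ± 0.49 higher without a call (edgeR adjusted p 0.0717). It was called higher in 4 of 17 alternatives, among them library totals (1.57, adjusted p 0.0230). Itga2b, the platelet fibrinogen receptor, was 0.57 ± 0.24 lower in fibrosis without a call (edgeR adjusted p 0.0651), and 4 of 18 alternatives called it lower, among them the fit without fibrosis replicate 1 (-0.85, adjusted p 0.00467). The platelet markers measured beside it were near 0 in all groups: 9 genes summed to 1.63 to 4.88 CPM per library, while Itga2b alone had 13.7 to 28.8 CPM. Gp1bb, Gp5 and Gp6 were at 0 in all normal libraries, Gp5 in all fibrosis libraries, and Ppbp, Gp9 and Gp1bb in all schisandrin B libraries. Pf4, the 1 platelet marker tested, rose by 1.10 in fibrosis and by 1.42 with schisandrin B against normal. Upper-quartile factors ended both calls (edgeR adjusted p 0.0710 and 0.0519). The part of platelets in the level of Itga2b was not tested.

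Itgb3, the beta partner of Itga2b and Itgav, had 14.3 to 19.2 CPM in normal, 19.1 to 29.5 CPM in fibrosis and 14.2 to 17.0 CPM in schisandrin B libraries. It fell by 0.60 ± 0.20 with schisandrin B (edgeR adjusted p 0.0313), a call lost without fibrosis replicate 1 (-0.41, adjusted p 0.0823), without each schisandrin B library and with upper-quartile factors. Its difference of 0.44 ± 0.20 between fibrosis and normal was called with library totals alone (0.85, adjusted p 0.00479). Itgb6 and Itgb8, the epithelial TGF-beta activators, had 3 to 22 and 2 to 9 counts per library and were not tested.

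The 3 laminin-binding alpha chains differed in their calls. Itga6 and Itga3 were higher in fibrosis than in normal libraries and lower with schisandrin B than in fibrosis, not always with a call. Itga7 had the opposite directions. Itga6, which pairs with beta 1 or beta 4, had 4.21, 8.40 and 6.96 CPM in normal, 15.2, 17.8 and 16 CPM in fibrosis, and 14.5, 11.7 and 10.2 CPM in schisandrin B libraries. Normal libraries were lowest and fibrosis libraries highest, with no overlap between any 2 groups. Itga6 rose by 1.32 ± 0.26 in fibrosis (edgeR adjusted p 0.00142) and by 0.89 ± 0.26 with schisandrin B against normal (edgeR adjusted p 0.0493, lost in 8 of 18 alternatives), and was 0.43 ± 0.25 lower with schisandrin B than in fibrosis without a call (edgeR adjusted p 0.183). Every rise of Itga6 is against the normal libraries, which have 0 counts of the Y-linked Kdm5d and Eif2s3y.

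Itga7, a laminin receptor best known from muscle, had 20.3, 24.4 and 22.4 CPM in normal, 15.2, 12.9 and 13.3 CPM in fibrosis, and 28.5, 24.5 and 19.6 CPM in schisandrin B libraries. The fibrosis libraries were the 3 lowest. Itga7 fell by 0.70 ± 0.18 (edgeR adjusted p 0.00833), a call that library totals ended (-0.28, adjusted p 0.280), and rose by 0.81 ± 0.18 with schisandrin B (edgeR adjusted p 0.00369), a call kept in every alternative fit. Itga3, an epithelial receptor for laminins with alpha 3 or alpha 5, had 2.67 to 3.61 CPM in normal, 3.40 to 5.99 CPM in fibrosis and 1.17 to 2.96 CPM in schisandrin B libraries. It was called in the second comparison alone, with a fall of 1.15 ± 0.38 (edgeR adjusted p 0.0265) that was lost without fibrosis replicate 3 or schisandrin B replicate 2 or 3. Itgb4, the beta chain of hemidesmosomes and partner of alpha 6, stayed between 2.26 and 4.59 CPM without a call.

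**Figure D4:**
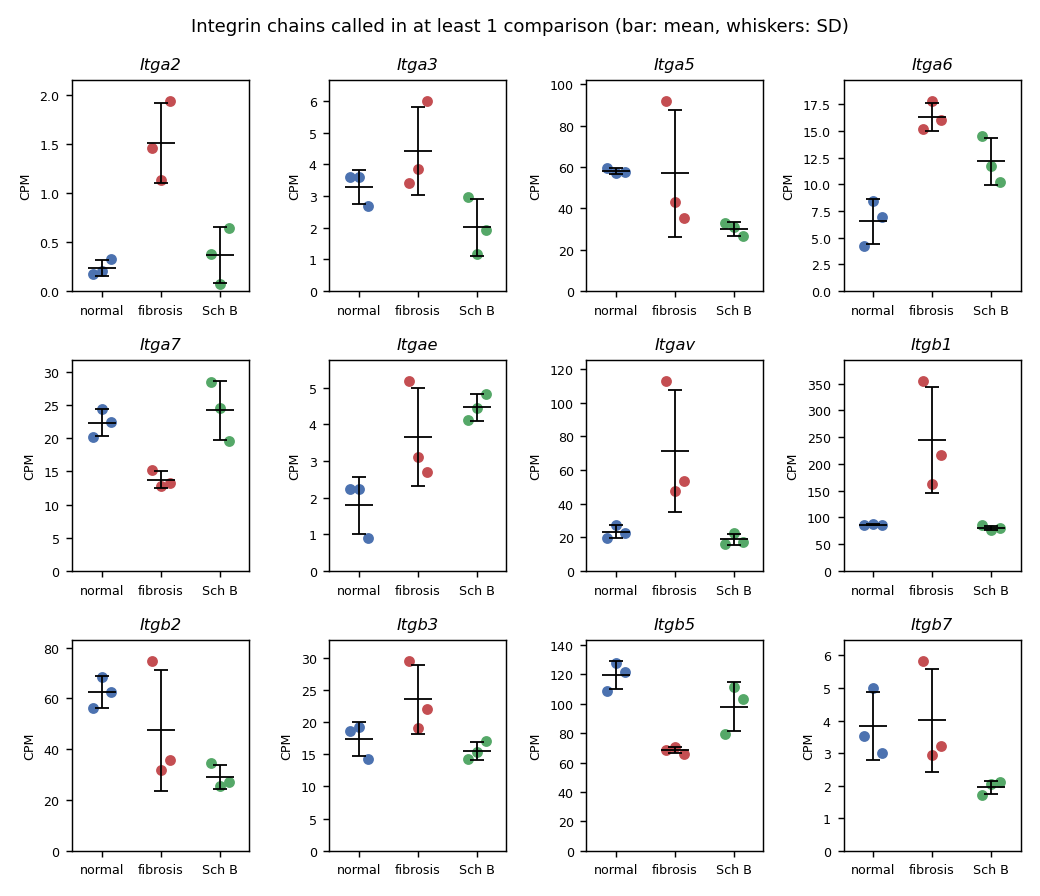
Levels of the 12 integrin chains called in at least 1 comparison, in CPM, with 1 point per library, the mean as a bar and the SD as whiskers (n = 3 per group), each panel from 0 on its own scale. Itgb1 and Itgav are high in all 3 fibrosis libraries, whereas Itga5 and Itgb2 are high in fibrosis replicate 1 but not in the other 2 fibrosis libraries.

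Of the collagen-binding alpha chains only Itga2 was called. It had 2, 3 and 4 counts in normal, 18, 15 and 33 in fibrosis, and 4, 1 and 7 in schisandrin B libraries, or 0.172 to 0.324, 1.14 to 1.94 and 0.0729 to 0.639 CPM. Every fibrosis library exceeded the others, but the normal and schisandrin B libraries held few counts. Itga2 rose by 2.66 ± 0.62 and fell by 2.08 ± 0.59 (edgeR adjusted p 0.00408 and 0.0129), and the fall was lost without schisandrin B replicate 2 (0.0515). Itga1, the collagen IV receptor of stellate and endothelial cells, had 32.2 to 48.4 CPM in normal and 23.2 to 47.9 CPM in fibrosis libraries. Itga1 was not called, except as 0.60 higher with schisandrin B than in fibrosis when fibrosis replicate 1 was left out (adjusted p 0.0334). Itga10, of cartilage, had 2 counts in 1 library, and Itga11, a fibroblast receptor for fibrillar collagen, had 0 to 14 counts.

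Bile duct epithelium is a cell type with a basement membrane. In the comparisons with fibrosis its called markers changed in the same directions as Lamb3 and Itga2. They did not move with every epithelial chain: Lama3 fell in fibrosis and rose with schisandrin B, Itga3 was called with schisandrin B alone, and Itgb4 had no call. The 9 markers summed to 37.3 to 47.6 CPM in normal, 77.6 to 84.7 CPM in fibrosis and 30.9 to 52.8 CPM in schisandrin B libraries. None of the 9 was at 0 in a whole group. Of 7 tested markers 3 rose and 0 fell in fibrosis, and 0 rose and 2 fell with schisandrin B. The called shares of 42.9% and 28.6% were under the 48.3% and 47.3% of all tested genes. With schisandrin B against normal 1 of the 7 rose and 0 fell (14.3% called, against 10.5% of all tested genes). The highest log2 change there was 2.23, whereas Lamb3 and Itga2 had no call in that comparison. Among the markers Epcam, an epithelial adhesion protein, rose by 1.47 ± 0.27 and fell by 1.62 ± 0.27. Krt19, a duct keratin, rose by 1.27 ± 0.33 and fell by 1.48 ± 0.34. The part of the duct markers in the levels of these chains was not tested.

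Integrin chains of leukocytes were split by fibrosis replicate 1. Itgal (alpha L) and Itgb2 (beta 2) form LFA-1, which binds ICAM proteins. Itgal had 60.1 to 77.1 CPM in normal, 73.3, 30.0 and 29.0 CPM in fibrosis, and 26.5 to 44.8 CPM in schisandrin B libraries. Itgb2 had 56.3 to 68.5 CPM in normal, 74.7, 31.9 and 35.6 CPM in fibrosis, and 25.4 to 34.4 CPM in schisandrin B libraries. In both genes the first fibrosis library was within or above the normal range, and the other 2 were near the schisandrin B libraries.

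Neither gene was called in fibrosis against normal, with -0.68 ± 0.34 and -0.40 ± 0.29 (edgeR adjusted p 0.123 and 0.270). Without fibrosis replicate 1 both were called lower, at -1.26 and -0.89 (adjusted p 0.000557 and 0.00141). Itgb2 fell by 1.11 ± 0.29 with schisandrin B against normal (edgeR adjusted p 0.0333), and this call was lost without any 1 of the normal or schisandrin B libraries. Itgal was 1.04 ± 0.35 lower there without a call (edgeR adjusted p 0.0810).

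The other alpha partners of beta 2 had lower counts and no call in any comparison. Itgam, of Kupffer cells and neutrophils, had 4.29 to 13.1 CPM in normal, 4.69 to 10.04 CPM in fibrosis and 3.93 to 5.07 CPM in schisandrin B libraries. Itgax, of dendritic cells and macrophages, ran from 1.46 to 7.12 CPM, and Itgad from 0.227 to 3.52 CPM. Itgal, Itgam, Itgax and Itgad are related in sequence, and how shared reads were counted is not given in the sources used here. Itga4, which with beta 1 binds VCAM-1, ran from 1.82 to 6.96 CPM. Itga9, a receptor for tenascin and osteopontin, ran from 41.0 to 99.6 CPM, and neither was called.

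Itgb7, the gut-homing beta chain, had 3.00 to 5.01 CPM in normal, 2.95 to 5.83 CPM in fibrosis and 1.72 to 2.10 CPM in schisandrin B libraries. It fell by 1.02 ± 0.35 with schisandrin B against fibrosis (edgeR adjusted p 0.0326), a call lost in 6 of 17 alternatives, among them the fit without fibrosis replicate 1 (-0.66, adjusted p 0.121). Itgae, its alpha partner on T cells within epithelia, had 0.891 to 2.24 CPM in normal, 2.70 to 5.18 CPM in fibrosis and 4.11 to 4.84 CPM in schisandrin B libraries. Itgae rose by 1.02 ± 0.39 in fibrosis (edgeR adjusted p 0.0482), but 13 of 17 alternatives did not call it.

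Marker sums of most blood-derived cells were not above normal in the CCl4 groups. General leukocyte markers (6 genes) summed to 113 to 166 CPM in normal, 68.5 to 134 CPM in fibrosis and 85.7 to 114 CPM in schisandrin B libraries. T and NK cell markers (10 genes) summed to 108 to 152, 54.5 to 99.3 and 69.6 to 99.1 CPM, and Kupffer cell and macrophage markers (13 genes) to 1803 to 2802, 1108 to 2260 and 1126 to 1752 CPM. Of 8 tested T and NK cell markers 7 fell and 0 rose in fibrosis (87.5% called, against 48.3% of all tested genes), but only 2 fell with library totals. The 8 neutrophil markers summed to 18.8 to 25.3 CPM in normal, 21.3 to 32.4 CPM in fibrosis and 12 to 16.5 CPM in schisandrin B libraries, with Elane at 0 in both CCl4 groups. Of 4 tested neutrophil markers 2 rose and 0 fell in fibrosis, and 0 rose and 3 fell with schisandrin B. The called shares were 50% and 75%, against 48.3% and 47.3% of all tested genes. No marker of the other 3 lists was at 0 in a whole group. The part of these blood-derived cells in the levels of the leukocyte integrins was not tested.

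**Figure D5:**
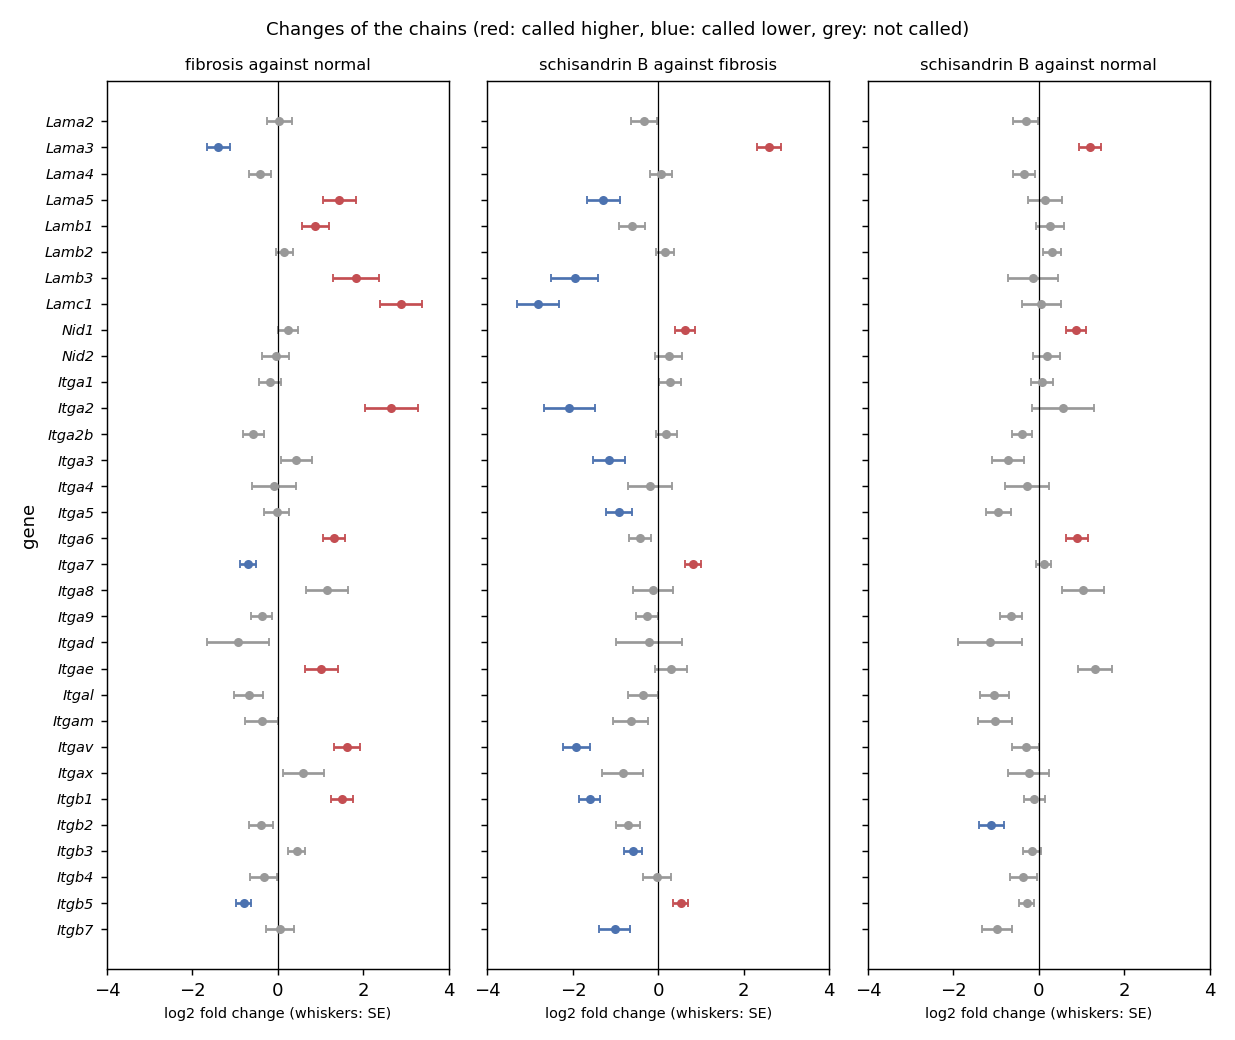
Log2 fold change of the tested members reported here in the 3 comparisons, with SE as whiskers, red for called higher, blue for called lower and grey for not called. Lamc1, Lamb3, Itga2, Itgav and Itgb1 are right of 0 in the first panel and left of 0 in the second, which share the fibrosis libraries, while Lama3 is on the opposite side in both.

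The genes around these chains were described from lists of their partners. Of 18 tested basement membrane partners 3 rose and 6 fell in fibrosis, a balance that library totals turned to 5 higher and 2 lower. With schisandrin B 7 rose and 0 fell against fibrosis (5 and 2 with library totals). The called shares were 50.0% and 38.9%, against 48.3% and 47.3% of all tested genes. Smoc1, a matrix protein of basement membranes, fell from 164, 166 and 212 CPM to 16.8, 20.8 and 17.0 CPM, and stood at 126, 108 and 124 CPM with schisandrin B. Col18a1, which carries endostatin, had 684 to 1018 CPM in normal, 402 to 494 CPM in fibrosis and 886 to 969 CPM in schisandrin B libraries. Col4a2, a chain of the collagen IV network, rose by 0.82 ± 0.23 in fibrosis (edgeR adjusted p 0.0124) and was 0.18 ± 0.23 lower with schisandrin B without a call (0.544). Agrin, Agrn, which binds the laminin coiled coil, had 25.6 to 32.1 CPM in normal, 16.7 to 19.5 CPM in fibrosis and 32.1 to 54.9 CPM in schisandrin B libraries. It rose by 1.19 ± 0.22 with schisandrin B (edgeR adjusted p 0.000945), and its fall in fibrosis was lost with library totals. Of the other partners Fbln1, or fibulin 1, rose by 1.41 ± 0.36 in fibrosis, whereas Hmcn1, or hemicentin 1, and Sparc, a collagen-binding protein, rose by 1.81 ± 0.33 and 1.08 ± 0.20 with schisandrin B. Col18a1, Agrn and Smoc1 were lowest in the 3 fibrosis libraries, where Lamc1 was highest and 22.9% of all tested genes were called lower. Col4a2 and Fbln1 of the same list rose in fibrosis, as Lamc1 did.

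Of 9 tested laminin receptors outside the integrins 3 rose and 2 fell in fibrosis, and 1 rose and 2 fell with schisandrin B. The called shares were 55.6% and 33.3%, against 48.3% and 47.3% of all tested genes. Bcam, which binds the alpha 5 chain, had 12.3 to 14.8 CPM in normal, 21.3 to 31.2 CPM in fibrosis and 10.1 to 15.9 CPM in schisandrin B libraries. It rose by 0.92 ± 0.22 and fell by 0.99 ± 0.22 (edgeR adjusted p 0.00535 and 0.00364). The syndecans, proteoglycans that bind laminin through heparan sulfate, split. Sdc1 rose by 1.24 ± 0.31 and fell by 1.54 ± 0.31, and Sdc2 fell by 1.68 ± 0.20 and rose by 1.56 ± 0.20. Sdc3 fell by 1.28 ± 0.22 in fibrosis and showed no call with schisandrin B against fibrosis (0.05 ± 0.22, edgeR adjusted p 0.881).

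Of 18 tested other integrin ligands 5 rose and 2 fell in fibrosis, and 2 rose and 7 fell with schisandrin B (7 and 0, then 0 and 11, with library totals). The called shares of 38.9% and 50.0% again stand beside 48.3% and 47.3% of all tested genes. Icam1, the ligand of LFA-1, had 35.0 to 39.8 CPM in normal, 67.1 to 116 CPM in fibrosis and 18.2 to 25.3 CPM in schisandrin B libraries. It rose by 1.18 ± 0.23 and fell by 1.97 ± 0.23 (edgeR adjusted p 0.00127 and 5.97e-05), while its receptor chains Itgal and Itgb2 had no call in these comparisons (Itgb2 was called lower with schisandrin B in 4 alternatives, among them library totals, -0.94, adjusted p 0.0124). Mfge8, a bridge between alpha V integrins and dying cells, rose by 1.19 ± 0.23 and fell by 1.13 ± 0.23. Vitronectin, Vtn, a ligand of alpha V beta 5 made by hepatocytes, fell by 0.96 ± 0.21 and rose by 0.77 ± 0.21, and library totals ended both calls. Thbs1 rose by 3.24 ± 0.83 in fibrosis, with 103, 14.8 and 28.5 CPM, and its fall with schisandrin B was not called without fibrosis replicate 1 (-1.73, adjusted p 0.0707). Cdh1, E-cadherin and a ligand of Itgae, was 0.89 ± 0.41 higher in fibrosis without a call (edgeR adjusted p 0.0932) and fell by 2.47 ± 0.43 with schisandrin B (0.000829). Fgg, the gamma chain of fibrinogen, was 0.62 ± 0.21 higher in fibrosis, a call lost with upper-quartile factors, and fell by 1.11 ± 0.21 with schisandrin B.

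Of 38 tested integrin adaptors and signalling genes 8 rose and 8 fell in fibrosis, and 6 rose and 13 fell with schisandrin B. With library totals the pairs were 18 higher and 5 lower, then 5 and 18. The called shares were 42.1% and 50.0%, near those of all tested genes. Talin 1, Tln1, which switches integrins on and ties them to actin, had 132 to 192 CPM in normal, 412 to 944 CPM in fibrosis and 101 to 129 CPM in schisandrin B libraries. It rose by 1.85 ± 0.31 and fell by 2.43 ± 0.32 (edgeR adjusted p 0.000522 and 0.000112). Zyxin, Zyx, a protein of focal adhesions under tension, had 39.5 to 43.2 CPM in normal, 112 to 315 CPM in fibrosis and 22.7 to 37.7 CPM in schisandrin B libraries. Vinculin, Vcl, which reinforces the bond of talin with actin, rose by 0.81 ± 0.20 and fell by 1.34 ± 0.21. In each of these 3 genes the lowest fibrosis library was above the highest library of both other groups.

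Other adaptors were low in fibrosis. Lims2, or PINCH-2, had 47.2 to 53.0 CPM in normal, 10.8 to 19.2 CPM in fibrosis and 40.7 to 44.1 CPM in schisandrin B libraries. The docking protein Nedd9 fell by 1.47 ± 0.22 and rose by 1.35 ± 0.22, and Cd47, a partner of beta 3 integrins, fell by 1.10 ± 0.15 and rose by 0.94 ± 0.15. Library totals kept the 6 calls of these 3 genes. Ilk, the kinase-like centre of the same complex as Lims2, ran from 98.9 to 111 CPM over all libraries, with changes of -0.03 ± 0.15 and 0.01 ± 0.15 and no call (edgeR adjusted p 0.875 and 0.961). It was named after its values were seen.

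Schisandrin B and normal libraries, compared directly, had calls in 4 of 33 members: Lama3, Nid1 and Itga6 rose and Itgb2 fell. The intervals show how far the other chains could still differ. The 95% confidence interval on the log2 scale ran for Itgav from -0.98 to 0.37, for Lama5 from -0.73 to 1.02, and for Itgb5 from -0.66 to 0.09. A 2-fold difference thus lies within the interval of Lama5 and of Lamc1, but outside that of Itgb5 and of Itgb1. Of the 33 members 15 had their highest group mean in fibrosis, 11 in normal and 7 in schisandrin B libraries. This ranking includes members without a call and was not made for all tested genes, so it shows nothing particular to the members.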

How the data were processed

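The table deposited by the authors gives unnormalized whole-number counts of reads for each gene in 9 rat liver libraries, sequenced on the Ion Proton per the labels' protocols. For aligner, counting tool and strand setting, nothing is given in the sources used here. The submitters' processing notes list the build GRCm38, a mouse build, whereas the strain is a rat and the symbols are rat symbols, so genes are given by the file's symbols, with no positions or sequences. Groups follow the source names and replicate numbers only name libraries.

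The analysis of the counts used edgeR 4.0.16 under R 4.3.3: filterByExpr, TMM factors, a robust quasi-likelihood fit over all 9 libraries with 1 mean per group, and an F test for each pair of groups. The SE is the log2 fold change divided by the square root of F. Alternatives used DESeq2 1.42.0 and limma 3.58.1 (voom), other scalings, filters and thresholds, fits on the 2 groups compared, the 20 most counted genes left out, and each library left out. The code was tested on simulated data. Figures used Python 3.11.15 and matplotlib 3.10.9.

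Counts and sums cover all members. A single member is not reported here by itself. The other laminin and nidogen chains and every called integrin are named, and, for each of the 2 comparisons with fibrosis, up to 4 called members of each partner list with the lowest adjusted p. Ilk, Epcam, Krt19, Acta2, Col1a1, Kdm5d, Eif2s3y and Ddx3y are outside this rule. The members and lists were chosen with earlier results of these data known. Count-based intervals and floors cover counting error only.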

Additional observations from a re-analysis of the deposited data

How the results depend on the processing

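The number of members called in fibrosis against normal libraries was 13 and stayed within 1.5 times that number in every alternative (9 to 15, and 10 to 15 when each library was left out in turn). With schisandrin B against fibrosis it was 15, with 6 at an adjusted p under 0.01 and 7 to 15 when each library was left out, the lowest without schisandrin B replicate 3 (7) and replicate 2 (8). With schisandrin B against normal it was 4, with 7 by the DESeq2 Wald test, 8 in a fit of only the 2 groups compared, 0 at an adjusted p under 0.01, 2 with at least a 2-fold change, and 0 to 8 when each library was left out, with 8 without fibrosis replicate 1. The cause was not tested. Where the threshold is stricter, fewer members can be called by construction. Of 1751 values of single members under an alternative, 1617 were counted as the same, 84 lost and 35 gained a call. Those counted as the same kept their side of the threshold, but include uncalled values that changed sign by less than the SE. Another 15 uncalled values changed sign by at least the SE, and 0 called values changed sign. Among the chains reported here, those called at an adjusted p under 0.05 in every alternative scaling, filter, test and set of libraries in which they were tested were Itga2, Itga6, Itgav, Itgb1, Lama3, Lama5 and Lamc1 in fibrosis against normal, and Itga7, Itgav, Itgb1, Lama3 and Lamc1 with schisandrin B against fibrosis. Of these, the stricter thresholds left out Lama5 (adjusted p 0.010) and Itga7 (0.81 on the log2 scale, under 2-fold). Library totals shifted the median of all genes by 0.43, -0.27 and 0.16 on the log2 scale in the 3 comparisons and turned the members' calls to 13 higher and 1 lower, then 2 and 13, then 4 and 1. Upper-quartile factors shifted it by -0.11, 0.13 and 0.02. No paired analysis was possible because the labels carry no replicate numbers. Itga2, Lamb3, Itgad and Itgax have few counts, and Itga10, Itga11, Itgb6, Itgb8, Lama1 and Lamc3 were too low to test.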
